A study of Mus musculus with 14 samples.

Results

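The EGR and NR4A genes encode transcription factors whose transcripts appear within minutes when a cell receives an activating signal. They were examined here with the serum response factor gene Srf and the immediate early response genes Ier2, Ier3 and Ier5, 10 genes in all of 48714 gene labels listed. The genes were chosen by name. A gene listed in numbered copies was taken as the copy with the highest mean, which was Egr2_1 of 2 copies of Egr2 and Ier3_1 of 3 copies of Ier3. The RNA came from haematopoietic stem cells (HSCs) of C57BL/6 bone marrow that had been sorted by their calcium level. The groups were 7 libraries of calcium-high HSCs ([Ca2+]high in the labels) and 7 of calcium-low HSCs ([Ca2+]low), each from total RNA of 100 cells. No genotype, treatment or age separates the groups in the labels, and the title of the series names cytoplasmic calcium as a regulator of HSC dormancy. The labels do not say whether libraries came from separate animals, so p-values measure only the spread between these samples.

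Calcium entry activates calmodulin-dependent kinases, calcineurin and the ERK cascade. These act on DNA-bound CREB, MEF2 and SRF, which are already present in the resting cell, and so switch on EGR, NR4A and IER genes without new protein synthesis. EGR1 is a zinc finger factor that is known in mice to hold HSCs in quiescence and in the marrow niche. NR4A1 (Nur77), NR4A2 (Nurr1) and NR4A3 (Nor1) are orphan nuclear receptors, and NR4A1 and NR4A3 are known in mice to restrain HSC proliferation and to act as suppressors of myeloid leukaemia. SRF binds CArG boxes with ternary complex factors or with myocardin-related factors and drives both immediate early genes and genes of the actin cytoskeleton.

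The labels name no batch, but replicates 1 to 3 and replicates 4 to 7 differed in several respects and were compared apart. Reads in the listed genes numbered 3575282 to 7387840 in a library of the first set and 8280756 to 10296347 in one of the second. Gene labels were turned into serial numbers in all 8 files of replicates 4 to 7 and in none of the 6 files of replicates 1 to 3. Another split ran through the first set. Reads of 4 Y-linked genes were 1298 to 1638 in replicates 1 and 2 of both groups, and 0 to 4 in all others, replicate 3 included. Male cells were thus seen in replicates 1 and 2 only, and the first set was mixed in sex. All 10 HSC markers, among them Kit, Procr, Hlf and Mecom, were above 0 in all 14 libraries. Calcium-low replicate 3 stood apart: its neutrophil markers summed to 771 RPKM (reads scaled to gene length and library depth), against at most 106 in any other library, with S100a8 at 392 RPKM. It also held 119.7 RPKM of the erythroid gene Car1 and 69.0 RPKM of the proliferation gene Mki67.

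The calcium differences that passed the test lay in replicates 4 to 7. There all NR4A genes and Ier2 were lower in calcium-high HSCs. Mean Nr4a1 was 0.52 times, Nr4a2 0.636 times, Nr4a3 0.412 times and Ier2 0.703 times its calcium-low level, while Egr1, Srf, Ier3 and Ier5 did not pass. Of the 10 genes, 8 had a mean of at least 1 RPKM over the 14 libraries and were tested. Of these, 4 were lower and 0 higher at an adjusted p under 0.05 (limma on log2(RPKM + 1), Benjamini-Hochberg over 9921 genes). Over all tested genes 1.78% were lower and 6.36% higher in the same fit. The groups did not overlap, with calcium-high below calcium-low, for 5 of the 8 genes (Nr4a1, Nr4a2, Nr4a3, Ier2 and Ier3), against 3.1% of all tested genes. The median log2 difference was -0.47 over the 8 genes and 0.11 over all tested genes.

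**Figure D1:**
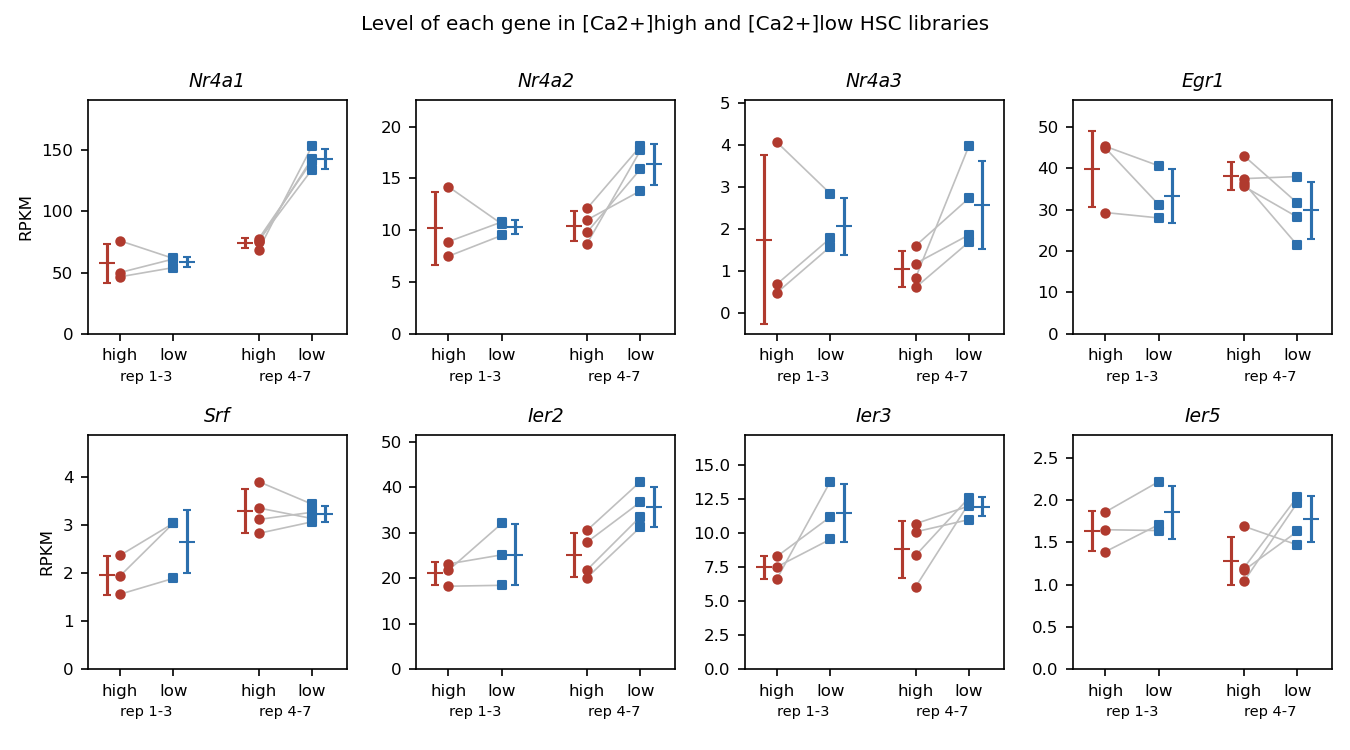
RPKM of the 8 tested genes in each library: red circles are calcium-high and blue squares calcium-low libraries, grey lines join libraries with the same replicate number, and the bars beside them give the mean and SD of each group of 3 (replicates 1 to 3) or 4 (replicates 4 to 7). In replicates 4 to 7 every calcium-high library lies below every calcium-low library for Nr4a1, Nr4a2, Nr4a3, Ier2 and Ier3.

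Each NR4A gene bears CREB core sites close to its start, and the bases upstream of the start are shown because all NR4A genes were lower together. The sequences are those of RefSeq (GRCm38.p6), read toward the gene, and each holds the 250 bases before the RefSeq start, cut short where an exon of a GENCODE model begins within them. The Nr4a1 stretch lies inside the GENCODE gene, before an internal start, and holds no GENCODE exon. Capitals mark the cyclic AMP response element (CRE) core TGACG, which reads CGTCA when it lies on the other strand. Nr4a1 (chr15:101266596-101266845, plus strand), Nr4a2 (chr2:57124004-57124253, minus strand) and Nr4a3 (chr4:48045055-48045152, plus strand) read as follows.
Nr4a1: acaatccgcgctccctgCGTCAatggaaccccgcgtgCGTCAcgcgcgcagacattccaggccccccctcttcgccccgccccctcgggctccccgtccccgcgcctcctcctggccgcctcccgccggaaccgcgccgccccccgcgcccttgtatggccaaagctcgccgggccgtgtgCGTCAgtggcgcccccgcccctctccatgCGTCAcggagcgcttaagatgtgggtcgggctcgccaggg
Nr4a2: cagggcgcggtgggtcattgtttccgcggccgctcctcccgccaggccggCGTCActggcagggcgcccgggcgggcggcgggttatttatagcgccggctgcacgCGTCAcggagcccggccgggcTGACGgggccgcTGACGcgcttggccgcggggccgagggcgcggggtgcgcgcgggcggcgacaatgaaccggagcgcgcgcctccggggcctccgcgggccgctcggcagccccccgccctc
Nr4a3: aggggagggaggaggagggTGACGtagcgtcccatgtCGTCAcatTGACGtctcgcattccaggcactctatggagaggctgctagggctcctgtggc

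Over the full 250 bases upstream of the RefSeq start, each of the 3 NR4A genes held 4 CRE cores. The fourth of Nr4a3 lies in the GENCODE exon and is not printed. Of 32841 promoters of the same length, 17.8% held at least 1 core on either strand and 0.137% held at least 4. A whole CRE (TGACGTCA) would have counted on both strands, and none of the 3 NR4A promoters held one. Srf had 1 core, and Ier3 and Ier5 had 0. Egr2, with 5 starts in the table, had 2 cores before 3 of them and 0 before the others. The Nr4a1 and Srf promoters also held 1 EGR site each (GCGGGGGCG), a motif found in 2.57% of promoters. Both overlapped a GC box (GGGCGG). The table had a promoter for 7 of the 10 genes and none for Egr1, Egr3 and Ier2. These matches describe letters, and no binding was measured. The promoters counted were not matched for base composition. Ier2, which was called, and Egr1 had no promoter listed, so the counts of cores cannot be set against the calls.

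**Figure D2:**
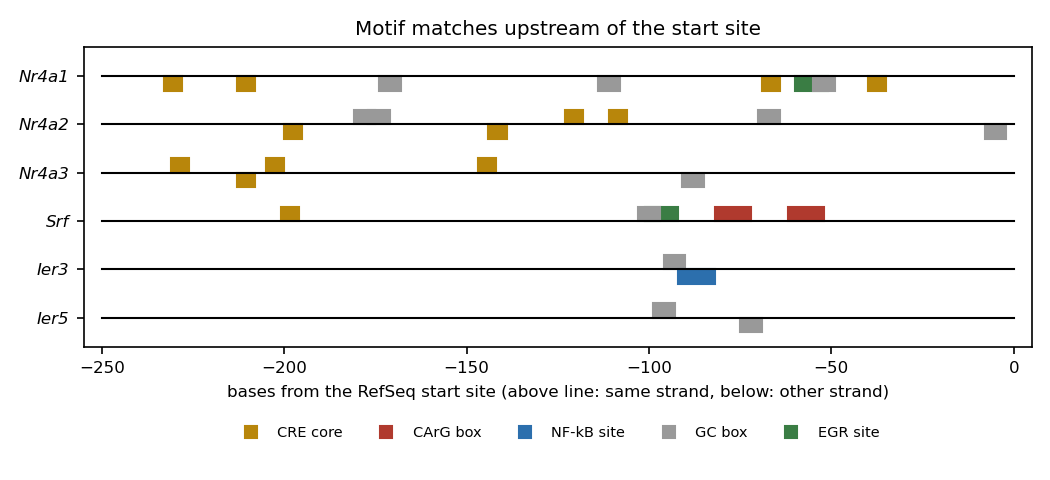
Motif matches in the 250 bases before the RefSeq start of 6 genes, drawn by distance from the start in bases; boxes above a line lie on the gene's strand and boxes below it on the other strand. CRE cores (gold) number 4 in each NR4A gene, 1 in Srf and 0 in Ier3 and Ier5. Egr2, which has 5 listed starts with 0 or 2 cores each, is not drawn, and Egr1, Egr3 and Ier2 had no promoter listed.

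Nr4a1 (ENSMUSG00000023034.7, GRCm38 chromosome 15, 101254269 to 101274795, plus strand) was the most abundant of the 10 genes. It stood at 75.0, 77.4, 68.5 and 76.0 RPKM in calcium-high libraries of replicates 4 to 7, against 143, 141, 153 and 134 RPKM in calcium-low libraries. The groups were far apart, and libraries within a group differed little. The means were 74.2 ± 3.93 and 143 ± 7.76 RPKM (SD, n = 4 each), a log2 difference of -0.93 (SE 0.07; limma adjusted p = 0.000111). Its p ranked 4 among 9921 genes. The reads behind these values were 49150 in the calcium-high and 100754 in the calcium-low libraries.

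Nr4a2 (chromosome 2, 57106830 to 57124003, minus strand) moved the same way at a lower level. It was at 9.81, 12.1, 8.71 and 11 RPKM in calcium-high and 15.9, 18.1, 17.7 and 13.8 RPKM in calcium-low libraries of replicates 4 to 7. The highest calcium-high library was below the lowest calcium-low one. Nr4a2 averaged 10.4 ± 1.47 and 16.4 ± 2.01 RPKM in calcium-high and calcium-low libraries (SD, n = 4 each; log2 difference -0.61, SE 0.11; limma adjusted p = 0.00836).

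Nr4a3 (chromosome 4, 48045153 to 48086447, plus strand) was the least abundant NR4A gene and varied most relative to its mean. Its values in replicates 4 to 7 were 1.18, 1.60, 0.836 and 0.611 RPKM in calcium-high and 1.86, 2.73, 3.97 and 1.69 RPKM in calcium-low libraries. The groups came close without overlapping. The difference was -0.77 (SE 0.20; limma adjusted p = 0.0389), and since a pseudocount of 1 is large beside such values this understates the change. The call held in 3 of 8 fits that each left out 1 library, with adjusted p from 0.0189 to 0.111, while Nr4a1 and Nr4a2 were called in all 8.

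The NR4A genes together summed to 86.0, 91.1, 78.1 and 87.7 RPKM in the calcium-high libraries of replicates 4 to 7, against 160.4, 162, 175 and 149.8 RPKM in the calcium-low ones. Nr4a1 supplied most of this sum everywhere, 80.6% to 87.8% in calcium-high and 82.0% to 89.7% in calcium-low libraries over all 14. NR4A proteins can bind DNA as monomers, as homodimers or with one another, so the RPKM of the family were summed. The shares depend on the gene lengths used, which are not given. In bulk RNA, fewer cells carrying a transcript and less RNA per cell cannot be told apart.

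In replicates 1 to 3, 0 of the 8 genes passed in either direction, as 0% of all genes did (limma, with 1151 genes or 11.6% at an unadjusted p under 0.05). Nr4a1 was there at 49.97, 46.5 and 75.9 RPKM in calcium-high and 61.0, 54.0 and 61.5 RPKM in calcium-low libraries. Calcium-high replicate 3 was the highest of the 6, and the other calcium-high libraries were the lowest. The log2 difference was -0.07 (SE 0.21; limma adjusted p = 0.89), and its sign turned under other scalings.

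Nr4a2 in replicates 1 to 3 was at 8.90, 7.49 and 14.2 RPKM in calcium-high, against 10.8, 9.50 and 10.6 RPKM in calcium-low libraries. Nr4a3 was at 0.692, 0.488 and 4.06 RPKM in calcium-high, against 1.78, 1.58 and 2.84 RPKM in calcium-low libraries. For all NR4A genes calcium-high replicates 1 and 2 lay below every calcium-low library of the set, and calcium-high replicate 3 lay above them all. The log2 differences were -0.06 for Nr4a2 and -0.37 for Nr4a3 (SE 0.22 and 0.43), both short of the threshold (limma adjusted p = 0.909 and 0.676). Calcium-high replicate 3 also held 62.5 RPKM of Car1, and what share of its NR4A level goes with other cells was not tested. Replicate 3 of both groups also lacked the Y-linked reads of replicates 1 and 2, and any part of sex in these levels was not tested.

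Whether the calcium difference itself differed between the library sets was tested as an interaction. For Nr4a1 the difference in replicates 4 to 7 minus that in replicates 1 to 3 was -0.87 on the log2 scale (SE 0.20). It missed the threshold (limma adjusted p = 0.105), in a fit where 0 of the 8 genes and 0% of all genes passed (2841 or 28.6% at an unadjusted p under 0.05). It passed with the replicate number as a block (SE 0.17, limma adjusted p = 0.0463), where 1 of the 8 genes and 0.121% of all genes were called in that direction. For Nr4a2 the value was -0.55 (limma adjusted p = 0.159, and 0.0883 with the block). The median of all genes was 0.31 in this contrast, on the other side of zero. The sets also differed in level: Nr4a1 was higher by 0.83, Srf by 0.38, Ier2 by 0.37 and Nr4a2 by 0.34 in replicates 4 to 7 than in replicates 1 to 3 (log2, limma adjusted p = 1.96e-05, 0.00395, 0.0227 and 0.0275), where 53.5% of all tested genes passed.

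**Figure D3:**
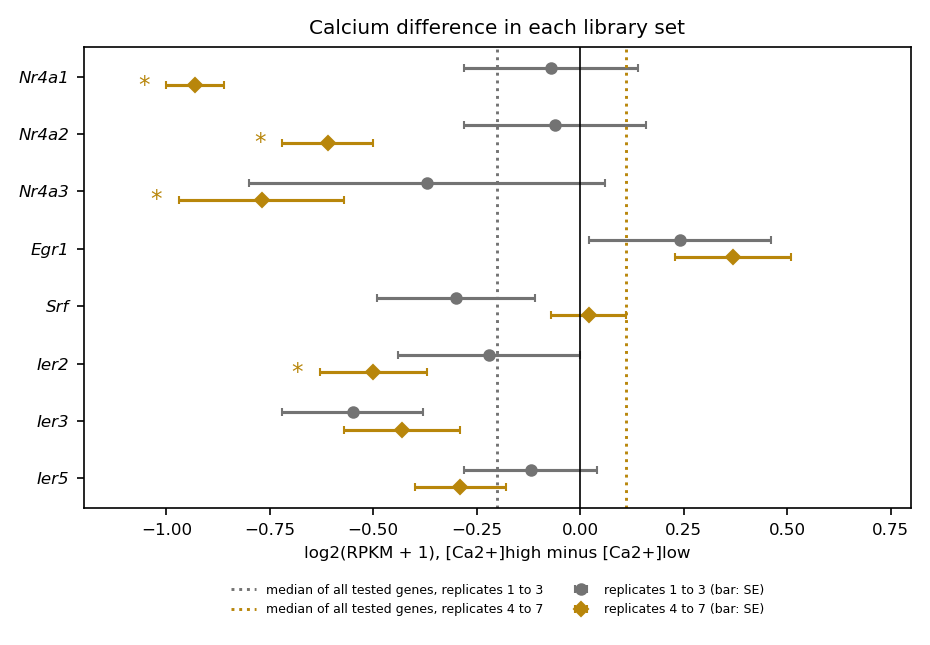
Log2 difference of RPKM + 1, calcium-high minus calcium-low, for the 8 tested genes in replicates 1 to 3 (grey circles) and replicates 4 to 7 (gold diamonds), with the SE of each fit; dotted lines give the median of all tested genes (-0.20 and 0.11) and stars mark an adjusted p under 0.05. The stars stand at Nr4a1, Nr4a2, Nr4a3 and Ier2 in replicates 4 to 7.

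Ier2, Ier3 and Ier5 are short immediate early genes. Ier2 encodes a nuclear regulator of transcription, Ier3 (IEX-1) a protein that modulates apoptosis and ERK signalling, and Ier5 a regulator of heat shock factor activity. Ier2 (chromosome 8, 84661331 to 84662852, minus strand) was at 27.9, 30.5, 21.8 and 20.1 RPKM in calcium-high libraries of replicates 4 to 7, against 36.7, 41.2, 33.5 and 31.2 RPKM in calcium-low libraries. Every calcium-high library lay below every calcium-low library. The means were 25.1 ± 4.96 and 35.7 ± 4.35 RPKM (SD, n = 4 each; log2 difference -0.50, SE 0.13; limma adjusted p = 0.0408), and the call held in 2 of 8 fits without 1 library, with adjusted p from 0.0113 to 0.123.

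Ier2 in replicates 1 to 3 was at 21.7, 23.1 and 18.2 RPKM in calcium-high and 32.0, 25.1 and 18.4 RPKM in calcium-low libraries. The pairs lay in the same order, but the third pair was nearly level. The log2 difference was -0.22 (SE 0.22; limma adjusted p = 0.606), near the median of all genes in that set, -0.20.

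Ier3 (chromosome 17, 35821684 to 35822923, plus strand) was at 8.36, 10.1, 6.04 and 10.7 RPKM in calcium-high and 12.6, 11, 12.2 and 12 RPKM in calcium-low libraries of replicates 4 to 7. Over replicates 1 to 3 it was at 7.52, 8.29 and 6.64 RPKM in calcium-high and 9.55, 11.2 and 13.8 RPKM in calcium-low libraries. The groups did not overlap in either set. The log2 differences of -0.43 (SE 0.14) and -0.55 (SE 0.17) missed the threshold (limma adjusted p = 0.0841 in replicates 4 to 7 and 0.421 in replicates 1 to 3). The same non-overlap was seen for 19.7% of all tested genes in replicates 1 to 3. With median-of-ratios scaling, upper-quartile scaling or limma-voom, Ier3 passed in replicates 4 to 7 (adjusted p = 0.0299, 0.0384 and 0.00766).

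The promoter of Ier3 is shown because Ier3 is a known NF-kB target. Its bases (chr17:35821463-35821683, plus strand, RefSeq, GRCm38.p6) are printed to the first GENCODE exon, with capitals on the match to the NF-kB site, a motif found in 3.9% of promoters, both strands searched. The match overlaps a GC box.
Ier3: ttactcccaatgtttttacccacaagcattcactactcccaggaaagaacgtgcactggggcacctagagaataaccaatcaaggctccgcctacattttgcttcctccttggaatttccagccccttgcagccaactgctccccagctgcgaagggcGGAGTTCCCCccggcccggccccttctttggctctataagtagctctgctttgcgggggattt

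Ier5 (chromosome 1, 155096361 to 155099636, minus strand) was near the testing level, at 1.04, 1.69, 1.20 and 1.17 RPKM in calcium-high and 1.97, 1.47, 2.04 and 1.63 RPKM in calcium-low libraries of replicates 4 to 7. Pair 5 ran against the other pairs, so the groups overlapped. Its log2 difference was -0.29 (SE 0.11; limma adjusted p = 0.137), and -0.12 (SE 0.16; adjusted p = 0.727) in replicates 1 to 3.

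Among the EGR genes Egr1 alone was abundant. Egr1 (ENSMUSG00000038418.7, chromosome 18) was at 43.0, 37.5, 35.6 and 36.4 RPKM in calcium-high libraries of replicates 4 to 7, against 31.6, 38.0, 28.2 and 21.4 RPKM in calcium-low libraries. In this set 3 pairs had more Egr1 in calcium-high HSCs and pair 5 was level. The means were 38.1 ± 3.37 and 29.8 ± 6.93 RPKM (SD, n = 4 each; log2 difference 0.37, SE 0.14), and limma gave an adjusted p of 0.135.

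Egr1 in replicates 1 to 3 was at 44.9, 45.3 and 29.3 RPKM in calcium-high and 31.2, 40.6 and 28.0 RPKM in calcium-low libraries. The groups overlapped, and all 3 pairs lay in the same order. The log2 difference was 0.24 (SE 0.22; limma adjusted p = 0.587). Over all 14 libraries Egr1 was higher in calcium-high HSCs in 6 of 7 pairs, with a log2 difference of 0.32 (SE 0.14; limma adjusted p = 0.734, and 0.193 with the replicate block). The share of all genes higher in 6 of 7 pairs was not counted. Egr1 was thus not called in any of these fits, and among the 8 genes it was the one whose difference was positive in both sets in these fits.

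Egr2 and Egr3, which share the zinc finger DNA-binding domain of Egr1 and restrain activated lymphocytes, were below the level for testing. Egr2_1 ran from 0 to 0.192 RPKM in calcium-high, against 0 to 0.186 RPKM in calcium-low libraries, with 65 and 71 reads over the 7 libraries of each group, and 5 of 14 libraries at 0. Egr3 ran from 0.0577 to 0.452 RPKM in calcium-high, against 0.0499 to 0.478 RPKM in calcium-low libraries, with 190 and 213 reads. The ranges of the groups overlapped for both genes, and no test was made of either.

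Srf (chromosome 17, 46548329 to 46556175, minus strand) was at 3.12, 3.91, 3.36 and 2.83 RPKM in calcium-high and 3.27, 3.44, 3.14 and 3.07 RPKM in calcium-low libraries of replicates 4 to 7. The values interleaved, with a log2 difference of 0.02 (SE 0.09; limma adjusted p = 0.917) whose sign turned under other scalings. Its values in replicates 1 to 3 were 1.94, 1.56 and 2.37 RPKM in calcium-high and 3.04, 1.89 and 3.04 RPKM in calcium-low libraries. Calcium-high was the lower of each pair, and the difference of -0.30 (SE 0.19; limma adjusted p = 0.456) was close to the median of all genes, -0.20. SRF drives its own gene, and the Srf promoter (chr17:46556176-46556412, minus strand, RefSeq, GRCm38.p6) is printed to the first GENCODE exon with capitals on its 2 CArG boxes, a motif found in 1.47% of promoters and overlapping no other motif searched.
Srf: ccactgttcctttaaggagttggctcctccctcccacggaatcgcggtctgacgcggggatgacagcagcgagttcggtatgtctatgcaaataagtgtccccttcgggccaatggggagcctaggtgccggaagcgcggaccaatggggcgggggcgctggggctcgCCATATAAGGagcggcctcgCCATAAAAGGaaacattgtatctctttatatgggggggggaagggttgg

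Over all 14 libraries, 0 of the 8 genes passed without a block, where 0% of all genes did (0 of 9921 by limma, 669 or 6.74% at an unadjusted p under 0.05). With the replicate number as a block 0 of the 8 genes and 0.917% of all genes passed. Limma-voom on the recovered reads called 6 of the 8 genes lower, all but Egr1 and Srf, and 2.61% of all genes. Ier2 and Ier3 were lower in calcium-high HSCs in 7 of 7 pairs, as were 3.02% of all tested genes, and each NR4A gene in 6 of 7, replicate 3 being the exception. How many of all genes were lower in 6 of 7 pairs was not counted. The log2 differences were -0.56 for Nr4a1, -0.37 for Nr4a2, -0.60 for Nr4a3, -0.38 for Ier2 and -0.48 for Ier3 (SE 0.25, 0.16, 0.24, 0.16 and 0.12). Their limma adjusted p ran from 0.219 to 0.724 without and from 0.0772 to 0.223 with the block. With the block and without replicate 3, Nr4a1, Nr4a2, Nr4a3 and Ier2 passed (limma adjusted p = 0.0118, 0.0254, 0.00722 and 0.0263), against 1.39% of all genes lower.

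Ratios between genes of the same library do not depend on how the library was scaled. The ratio of Nr4a1 to Egr1 was 1.74 to 2.09 in calcium-high libraries of replicates 4 to 7, against 3.70 to 6.28 in calcium-low libraries, which did not overlap. In replicates 1 to 3 it was 1.03 to 2.59 in calcium-high and 1.33 to 2.20 in calcium-low libraries, and the groups overlapped. The ratio of Ier3 to Egr1 was 0.170 to 0.293 in calcium-high and 0.289 to 0.562 in calcium-low libraries of replicates 4 to 7, which barely overlapped. In replicates 1 to 3 it was 0.167 to 0.227 in calcium-high and 0.277 to 0.492 in calcium-low libraries, with no overlap. The ratio of Ier2 to Egr1 was 0.552 to 0.814 in calcium-high and 1.08 to 1.46 in calcium-low libraries of replicates 4 to 7, with no overlap. Replicates 1 to 3 had 0.484 to 0.622 in calcium-high and 0.617 to 1.03 in calcium-low libraries, which overlapped. Egr1 ran the other way, which widens ratios to it. In replicates 4 to 7 the ratio of Nr4a1 to Nr4a2 was 6.39 to 7.86 in calcium-high and 7.76 to 9.76 in calcium-low libraries. That of Nr4a1 to Ier2 was 2.53 to 3.78 and 3.41 to 4.58. Both overlapped, there and in replicates 1 to 3. How often ratios of other genes separate the groups was not counted.

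**Figure D4:**
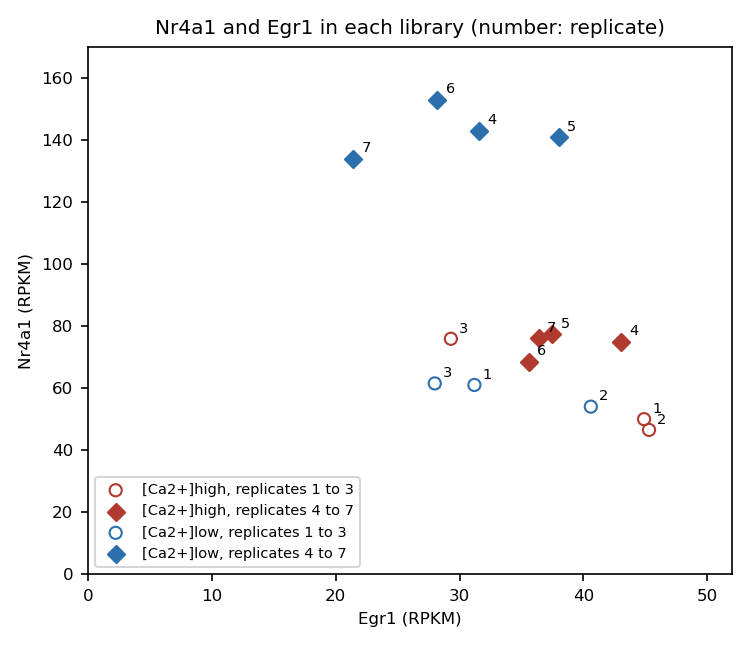
Nr4a1 against Egr1 (both in RPKM) in each of the 14 libraries, with red for calcium-high and blue for calcium-low, open circles for replicates 1 to 3 and filled diamonds for replicates 4 to 7, and the replicate number beside each point. The 4 calcium-low libraries of replicates 4 to 7 stand alone at 134 to 153 RPKM of Nr4a1.

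RPKM is per length, but the annotation that set the lengths is not given, so the order of genes below is approximate. In calcium-high replicate 1, 3 reads made 0.0354 RPKM of Nr4a1 and 0.0584 RPKM of Egr1. Nr4a1 was thus scaled to the longer length, although its GENCODE exons cover 3509 bases and those of Egr1 4484. Over all 14 libraries Nr4a1 averaged 86.9 ± 38.1 RPKM, above 98.9% of tested genes, followed by Egr1 at 35.1 ± 7.11 and Ier2 at 27.2 ± 7.17 RPKM (SD, n = 14), whose ranges overlapped. Nr4a2 at 12 ± 3.39 RPKM overlapped Ier3, whose median was 10.4 RPKM (range 6.04 to 13.8). Overlap was also seen between Srf at 2.86 ± 0.669, Nr4a3 at 1.85 ± 1.16 and Ier5 at 1.62 ± 0.343 RPKM (SD, n = 14). Egr3 and Egr2 came last, at 0.25 and 0.0436 RPKM.

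Levels of the NR4A genes were correlated over the libraries. After the mean of each library set was removed, log2 levels of Nr4a1 and Nr4a2 had a Pearson r of 0.93 over 14 libraries, Nr4a2 and Nr4a3 of 0.874 and Nr4a1 and Nr4a3 of 0.793. The r of Nr4a1 with Ier5 was 0.731, with Ier2 0.532, with Ier3 0.502 and with Srf 0.198, and with Egr1 it was -0.647. Over the 8 libraries of replicates 4 to 7 alone, Nr4a1 had an r of 0.934 with Nr4a2 and 0.831 with Nr4a3. With Ier2 it was 0.805, with Ier3 0.778 and with Ier5 0.772. These correlations describe libraries that share depth, scaling and the calcium groups. The mean of each calcium group was not removed, so they include the calcium differences given above. Whether the genes vary together within a calcium group was not tested. Among 4125 genes with a mean of at least 5 RPKM, those most like Nr4a1 were Ctla2b (r = 0.964), Smim3_1 (0.958) and Stk17b (0.94), over 14 libraries. Those most like Egr1 were Tns1 (0.871), Ezh1 (0.859) and Dennd2d (0.854), those most like Ier2 were Adssl1 (0.904), Sox4 (0.902) and Galnt6 (0.874), and those most like Srf included Rps2 (0.974) and Ppif (0.969).

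Most of the other immediate early genes that passed were lower in calcium-high HSCs, as the NR4A genes were. Of 32 tested genes of a list of 36, 15 were lower and 2 higher in calcium-high HSCs in replicates 4 to 7 (limma adjusted p under 0.05, against 1.78% and 6.36% of all genes). Their median log2 difference was -0.33, against 0.11 over all genes. Dusp5, a phosphatase that holds ERK in the nucleus, was at 11.2, 8.72, 6.80 and 10.2 RPKM in calcium-high and 23.8, 27.7, 19.6 and 22.1 RPKM in calcium-low libraries. The groups did not overlap (log2 difference -1.26, SE 0.14; limma adjusted p = 0.00063).

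Btg2, an antiproliferative gene, was at 15.1, 20.4, 12.5 and 10.8 RPKM in calcium-high and 29.9, 47.8, 29.8 and 29.1 RPKM in calcium-low libraries (log2 difference -1.17, SE 0.19; limma adjusted p = 0.00449). Dusp2, a nuclear ERK phosphatase, averaged 12.8 ± 1.34 and 23.6 ± 2.59 RPKM, and Sik1, a CREB-induced kinase that restrains CRTC coactivators, 31.8 ± 2.65 and 49.1 ± 1.09 RPKM in calcium-high and calcium-low libraries (SD, n = 4 each; limma adjusted p = 0.000796 for both). These 4 genes passed in all 12 alternative settings of the fit. The 2 genes called higher, named after their values were seen, were Klf2, a quiescence factor of lymphocytes, at 7.54 ± 1.84 and 3.99 ± 1.62 RPKM, and Id2, an inhibitor of basic helix-loop-helix factors, at 1.79 ± 0.641 and 0.697 ± 0.148 RPKM in calcium-high and calcium-low libraries. They passed in 5 and 8 of the 12 settings. Without replicate 6 the list had 5 genes lower and 0 higher, without replicate 4 it had 6 and 0, and with no filter 7 and 0. With the replicate block it had 13 lower and 2 higher, Btg1 and Nfkbiz no longer passing (limma adjusted p = 0.0833 and 0.0565).

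Summed over the 36 genes, this list came to 791 to 967 RPKM in calcium-high, against 1072 to 1249 RPKM in calcium-low libraries of replicates 4 to 7, and to 661 to 789 and 738 to 858 RPKM in those of replicates 1 to 3. The sum was lower in calcium-high HSCs in 7 of 7 pairs. In the 3 pairs of the first set the sums of the EGR corepressor, SRF cofactor, SRF target, CREB, ERK and calcium enzyme lists were lower too, and the median of all genes was -0.20. In the 4 pairs of the second set the sums of these lists were higher in calcium-high HSCs, except the SRF targets with 2 of 4. Of the 32 genes, 0 passed in replicates 1 to 3 (limma), as 0 of all 9921 did, with 1151 at an unadjusted p under 0.05. Over all 14 libraries 0 of the 32 passed without the block and 4 were lower with it (against 0.917% of all genes in either direction). These were Jun, Zfp36, Zfp36l1 and Dusp5 (limma adjusted p = 0.0364, 0.0364, 0.0372 and 0.0485). In replicates 1 to 3 Btg2 and Dusp2 had log2 differences of 0.00 and 0.01.

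The lists of regulators that act on these genes or with their products are set against the 6.36% of all tested genes that were higher and the 1.78% that were lower in replicates 4 to 7. Of 3 tested NR4A partners 1 was higher and 1 lower in calcium-high HSCs. Rxra, the retinoid X receptor that pairs with NR4A1 and NR4A2, was at 1.97, 1.95, 2.02 and 2.37 RPKM in calcium-high and 1.17, 1.29, 1.06 and 0.982 RPKM in calcium-low libraries (log2 difference 0.53, SE 0.09; limma adjusted p = 0.00569). Cebpa, a myeloid factor whose activity NR4A1 and NR4A3 are known to oppose in mouse HSCs, was at 1.36 ± 0.365 and 2.30 ± 0.135 RPKM in calcium-high and calcium-low libraries (SD, n = 4 each; limma adjusted p = 0.028). Neither was called in replicates 1 to 3 (limma adjusted p = 0.785 and 0.984).

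Of 11 tested CREB, CRTC and MEF2 genes 1 was higher and 1 lower, against 6.36% and 1.78% of all genes. Crem, which encodes activators and the early repressor of cyclic AMP responses, was at 1.60, 1.80, 1.30 and 2.17 RPKM in calcium-high and 2.71, 3.92, 2.66 and 3.22 RPKM in calcium-low libraries of replicates 4 to 7 (log2 difference -0.60; limma adjusted p = 0.0161). Crtc1, a CREB coactivator released by calcineurin, was at 7.63 ± 0.346 and 5.70 ± 0.378 RPKM in calcium-high and calcium-low libraries (SD, n = 4 each; limma adjusted p = 0.0159). Of 6 tested SRF cofactors only Mkl2, a myocardin-related factor, was called (4.20 ± 0.288 RPKM in calcium-high, against 2.96 ± 0.434 RPKM in calcium-low libraries, limma adjusted p = 0.0322), and of 11 ERK cascade kinases only Mapk3, which encodes ERK1 (9.89 ± 1.06 RPKM in calcium-high, against 7.01 ± 1.23 RPKM in calcium-low libraries, limma adjusted p = 0.0374), both higher in calcium-high HSCs.

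Of 15 tested cytoskeletal targets of SRF, 1 was higher and 1 lower, near the shares of all genes (6.36% and 1.78%). Vcl (vinculin) was at 8.16 ± 1.15 and 5.58 ± 0.259 RPKM in calcium-high and calcium-low libraries, and Zyx (zyxin) at 19.8 ± 1.32 and 24.4 ± 0.906 RPKM (SD, n = 4 each; limma adjusted p = 0.0153 and 0.0342). With the replicate block the calls of Mkl2 and Zyx did not pass (limma adjusted p = 0.0648 and 0.0526), while those of Rxra, Cebpa, Crem, Crtc1, Mapk3 and Vcl did. Of 12 tested calcium-to-transcription enzymes, among them calcineurin, NFAT and calmodulin genes, 0 were called in replicates 4 to 7, and Calm3 (calmodulin) was at 22.5 ± 3.17 RPKM in calcium-high, against 19.8 ± 1.73 RPKM in calcium-low libraries. The EGR corepressors Nab2 and Nab1 were not called either (limma adjusted p = 0.437 and 0.159), nor was Ier3ip1, the 1 tested gene of the other IER genes. With median-of-ratios scaling the calls of Crtc1, Mkl2, Mapk3, Vcl and Klf2 did not pass (limma adjusted p from 0.0553 to 0.147), and those of Rxra, Cebpa, Crem, Zyx and Id2 did.

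**Figure D5:**
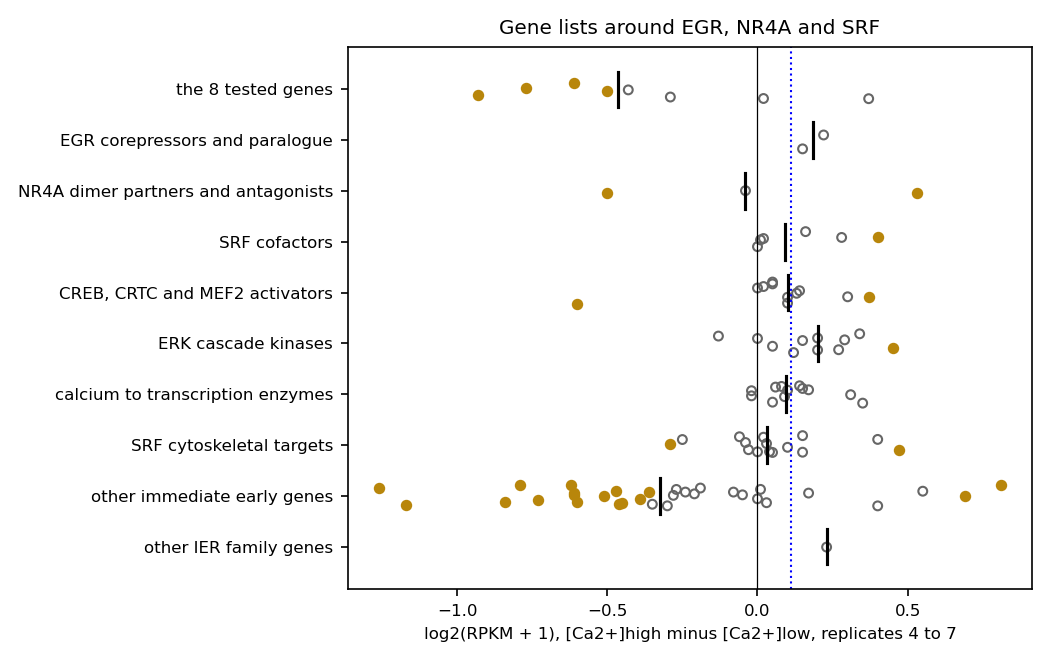
Log2 difference of RPKM + 1, calcium-high minus calcium-low, in replicates 4 to 7 for each tested gene of the 8 genes and of the lists around them; filled gold points have an adjusted p under 0.05, black bars are list medians and the dotted line is the median of all tested genes, 0.11. The 15 lower and 2 higher genes of the other immediate early list are the filled points of its row.

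Markers of other cells moved with the groups in part, and their share in the differences was not tested. In replicates 4 to 7 the 7 T and NK cell markers summed to 9.59 to 19.1 RPKM in calcium-high, against 20.7 to 33.4 RPKM in calcium-low libraries, nearly all of it Nkg7, with Cd3e and Cd3g at 0 in all 14. In calcium-high and calcium-low libraries the 7 monocyte and macrophage markers summed to 64.1 to 185 and 55.1 to 64.6 RPKM, mostly Lyz2, and the 6 megakaryocyte markers to 32.6 to 55.3 and 19.4 to 28.1 RPKM. Of these 6, Itga2b and Vwf had the highest means over all 14 libraries, 12.5 and 11.1 RPKM. The 10 HSC markers summed to 296 to 371 RPKM in calcium-high, against 224 to 262 RPKM in calcium-low libraries. In calcium-high and calcium-low libraries the 10 neutrophil markers, at 19.6 to 106 and 23.2 to 44.4 RPKM, and the 6 cycling markers, at 7.50 to 19.9 and 7.73 to 11.3 RPKM, overlapped in this set. For calcium-high and calcium-low libraries the 10 erythroid markers, at 29.8 to 68.6 and 18 to 40.2 RPKM, overlapped too, with calcium-high above calcium-low in 4 of 4 pairs. The 6 B cell markers, with Ms4a1 at 0 in all 14 libraries, summed to 4.0 to 5.97 RPKM in calcium-high, against 3.77 to 4.72 RPKM in calcium-low libraries, and the 6 endothelial and stromal markers to 6.50 to 8.65 RPKM in calcium-high, against 5.76 to 7.40 RPKM in calcium-low libraries, nearly all of it Cd79b and Pecam1.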

How the data were processed

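Total RNA of 100 sorted cells per library was turned into cDNA with not-so-random primers and Nextera XT libraries and read on a NextSeq system, per the labels' protocols. The authors deposited 1 file of RPKM per library, that is, reads scaled to gene length and to library depth. The unit was read from the values, since the headers name none. The submitters' processing notes name edgeR and the builds GRCm38 and mm10, without saying what each was used for. Aligner, counter, annotation and strand setting: not given in the sources used here. None of the 10 genes shares exonic bases with another gene of the GENCODE annotation of GRCm38. Which annotated copy a numbered label marks is not given.

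Of 48737 labels per file, 48714 were joined. Whole reads were recovered from the steps of the RPKM values for 9848 of 9848 tested genes above 0 in all libraries (tolerance 0.02 reads). Tables were made with Python 3.11.15, numpy 2.4.6 and pandas 2.3.3, and figures with matplotlib 3.10.9. The test was limma 3.58.1 (R 4.3.3, mean-variance trend) on log2(RPKM + 1) over 9921 genes averaging at least 1 RPKM, two-sided. It compared calcium-high with calcium-low libraries in all replicates, in replicates 1 to 3 and in replicates 4 to 7. It was checked on simulated data: at a 2-fold change 98% of 100 changed genes were recovered in all replicates, 79% in replicates 4 to 7, 52% in replicates 1 to 3 and 7% for the difference between sets. At a 1.5-fold change these shares were 42%, 13%, 7% and 0%. The changed genes were drawn from those averaging at least 5 RPKM, and Nr4a3, Srf and Ier5 lie below that level. The simulated counts had the same relative spread for every gene. They held no library set effect on unchanged genes beyond depth, and no library with markers of other cells. The shares therefore need not hold for the real libraries.

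The replicate numbers come from the sample titles. Deviations from the group means of same-numbered libraries correlated at 0.384 to 0.715 in all 7 pairs. Same-numbered libraries also share a library set, so these values cannot tell pairs from sets. Deviations taken within each library set correlated at 0.276 to 0.552 in replicates 1 to 3 and at -0.0647 to 0.123 in replicates 4 to 7. For 5 of the 14 libraries the own number was the best partner. The pairing is thus not established, and blocked values and counts of pairs take the numbers as given. The main fits have no block, and blocked values are given where they change a call.

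The genes and the lists were chosen with earlier results of these data known. From each list the genes named are those passing in any fit (at most 4, smallest p first), otherwise the 2 with the smallest p, and the 3 genes most like Egr1, Nr4a1, Srf and Ier2. One of these genes is not reported here. Lists of other genes covered immediate early genes, NR4A partners, SRF cofactors and targets, CREB, CRTC and MEF2 factors, ERK kinases, calcium enzymes, EGR corepressors and IER genes. Alternatives were a term for the library set, the block, other pseudocounts, no filter, other scalings, limma-voom and leaving out each replicate. Single libraries left out, ratios between genes and the block with another scaling were chosen after seeing the data.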

Additional observations from a re-analysis of the deposited data

Results flagged for a closer look

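The calcium difference of Nr4a1 differed between the library sets when the replicate number was a block, by -0.87 on the log2 scale (replicates 4 to 7 minus replicates 1 to 3; limma adjusted p = 0.0463). The same contrast passed for Btg2 (-1.17, adjusted p = 0.0309) and Dusp2 (-0.84, adjusted p = 0.0497) in the same direction, and for Mapk3 (0.87) and Calm3 (0.83, adjusted p = 0.0463 for both) in the other (limma with the block). Of 9921 genes, 153 were called in the direction of Mapk3 and Calm3 and 12 (0.121%) in that of Nr4a1. The median of all genes was 0.31, on the side of Mapk3 and Calm3. Per1 passed too (-0.75, limma adjusted p = 0.0481). In the fit with no block, all of these genes had a limma adjusted p of 0.105. When median-of-ratios scaling was joined to the block, Nr4a1 and Btg2 passed at -1.26 and -1.55 (limma adjusted p = 0.039 and 0.0101), and Dusp2 at -1.22, Mapk3 at 0.51 and Calm3 at 0.45 did not (0.0505, 0.286 and 0.271).

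Of 92 groups of 4 or 7 libraries checked, 6 had a library far from the others, where chance flags about 1 in 20. Srf in calcium-low replicate 2 was at 1.89 RPKM, with the nearest of the 7 at 3.04 RPKM. Mkl2 in calcium-high replicate 3 was at 2.58 RPKM, with the nearest at 3.79 RPKM. Vcl in calcium-low replicate 3, the library with the neutrophil markers, was at 14.2 RPKM, with the nearest at 7.11 RPKM. Among the 4 libraries of replicates 4 to 7, Klf2 in calcium-high replicate 6 was at 10.3 RPKM (nearest 6.83), Btg2 in calcium-low replicate 5 at 47.8 RPKM (nearest 29.9) and Zyx in calcium-low replicate 7 at 23.1 RPKM (nearest 24.7).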

How the results depend on the processing

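In replicates 4 to 7, where 4 of the 8 genes passed, 2 passed with no filter, 5 with median-of-ratios scaling and 1 to 6 without one replicate: 1 without replicate 4 or 6 and 2 without replicate 7. Calls over all genes in that set were 631 higher and 177 lower, but 237 and 459 with median-of-ratios scaling, 274 and 327 with upper-quartile scaling and 591 and 449 with limma-voom. Over all replicates the count of 0 became 6 with limma-voom, 1 when the replicate block was joined to median-of-ratios scaling, 0 to 1 without one replicate and 0 to 4 with the replicate block and without one replicate, the highest in each case without replicate 3. For the difference between the sets the count of 0 became 1 with the replicate block, with upper-quartile scaling, with limma-voom and with block and median-of-ratios scaling together, and 0 to 1 without one replicate, Nr4a1 in each case. In replicates 1 to 3 the count was 0 under every alternative. The block changed no other call of the 8 genes, and the pairing check is given with the methods.

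Signs turned where differences were small. In replicates 1 to 3, where median-of-ratios scaling moved the median of all genes to -0.02, Nr4a1 was at 0.16 with that scaling (also with the block), 0.22 with upper-quartile scaling and 0.04 with limma-voom, and 0.01 and 0.04 without replicates 2 and 1. Nr4a2 was at 0.15 (also with the block), 0.20 with upper-quartile scaling and -0.28 to 0.06 without one replicate, above 0 without replicate 1 or 2. Ier5 was at 0.03 (also with the block), 0.07 and, with limma-voom, 0.10, and Ier2 at 0.05 with upper-quartile scaling. In replicates 4 to 7 Srf was at -0.11 with median-of-ratios scaling (also with the block), -0.07 with upper-quartile scaling and limma-voom, and -0.02 without replicate 5. In the difference between sets Egr1 was at -0.26 with median-of-ratios scaling (also with the block) and limma-voom and -0.27 with upper-quartile scaling. Ier3 was there at -0.24 (also with the block), -0.25 and, with limma-voom, -0.49, and at -0.07 to 0.28 without one replicate, lowest without replicate 3. The cause of these changes beyond the scaling was not tested. Of the other results for single genes, 551 kept their direction and side of the threshold, 63 lost and 24 gained a call. Depth limits Egr2, Egr3 and genes near 1 RPKM.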
